A study of Mus musculus with 16 samples.

Results

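The 10 genes described here lie on mouse chromosome 3 between Scnm1 at 95.1 Mb and Gbp2b at 142.6 Mb and were followed across Ch25h genotype and tau status. They were chosen by their own counts, selected on a difference between Tau+ and Tau- libraries, and they are 10 of the 54532 entries of the count table, all of them among the 17736 genes that passed the filter on low counts and were tested. Another 362 tested genes start in the same stretch. RNA was sequenced from brain tissue of female mice of 9 months in 16 libraries, 4 in each of 4 groups. Wild-type (Ch25h+/+) mice were either Tau- or Tau+, and so were mice without Ch25h (Ch25h-/-). Ch25h encodes the enzyme that makes 25-hydroxycholesterol. The labels give tau status as + or - only, and the tau allele, its promoter, its site in the genome and the strain background are not given in the sources used here. The labels name frontal cortex and the text of the series names hippocampus. Nothing in the labels says whether libraries come from litters or batches in common. The p-values therefore set each difference against the spread between these libraries only, taken as independent.

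The 10 genes belong to no common pathway. Mettl14 is a subunit of the complex that methylates adenosines of messenger RNA, Capza1 is a subunit of the protein that caps the barbed ends of actin filaments, and Ndst3 is an enzyme that modifies heparan sulfate chains. Scnm1 is a splicing factor, Inka2 is an inhibitor of the kinase Pak4, Zgrf1 is a DNA helicase of crosslink repair and Gbp2b is an interferon-inducible guanylate-binding protein. Phtf1 is a transmembrane protein of the endoplasmic reticulum, and AI504432 and 4930590L14Rik are annotated as long intergenic noncoding RNAs.

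In GENCODE M21 on the build GRCm38, Scnm1 lies at chr3:95129536-95134011 on the minus strand and Phtf1 at chr3:103968110-104024598 on the plus strand. Capza1 lies at chr3:104822779-104864505 on the minus strand and Inka2 at chr3:105704599-105720842 on the plus strand. AI504432 lies at chr3:107039504-107054347 on the plus strand, Mettl14 at chr3:123368297-123386108 on the minus strand and Ndst3 at chr3:123526166-123690853 on the minus strand. Zgrf1 lies at chr3:127553489-127618023, 4930590L14Rik at chr3:140951876-140953247 and Gbp2b at chr3:142594847-142619179, all 3 on the plus strand. Counts were of whole genes, so exons, introns and UTRs cannot be told apart.

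The promoters of the 2 genes read in Tau+ libraries and, but for 1 count of Gbp2b, not in Tau- libraries are shown beside that of Zgrf1. Zgrf1 had the largest fold difference among the other members. The sequences are given so that the regions can be seen beside the counts. They run from 250 bases before to 50 bases after the annotated start, come from RefSeq on GRCm38.p6 and are written 5′ to 3′ on the plus strand, the strand of all 3 genes. Capitals mark GAAA followed by any 2 bases and GAAA (the core of the interferon-stimulated response element, ISRE) in Gbp2b at chr3:142594597-142594896, TATAAA (the TATA box) in 4930590L14Rik at chr3:140951585-140951884 and TGACGTCA (the cyclic AMP response element) in Zgrf1 at chr3:127553239-127553538, each searched on both strands.
Gbp2b: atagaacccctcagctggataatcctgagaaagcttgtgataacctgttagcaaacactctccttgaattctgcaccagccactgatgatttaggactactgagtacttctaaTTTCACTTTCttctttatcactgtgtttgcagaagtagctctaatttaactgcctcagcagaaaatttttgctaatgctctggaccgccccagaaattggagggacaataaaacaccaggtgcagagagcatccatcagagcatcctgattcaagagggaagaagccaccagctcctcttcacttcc
4930590L14Rik: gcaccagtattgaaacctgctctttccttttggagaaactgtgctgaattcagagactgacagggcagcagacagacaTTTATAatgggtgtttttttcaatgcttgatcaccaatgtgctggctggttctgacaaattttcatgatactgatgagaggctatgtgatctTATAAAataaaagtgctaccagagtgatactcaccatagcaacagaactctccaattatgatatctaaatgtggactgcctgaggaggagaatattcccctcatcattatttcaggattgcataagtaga
Zgrf1: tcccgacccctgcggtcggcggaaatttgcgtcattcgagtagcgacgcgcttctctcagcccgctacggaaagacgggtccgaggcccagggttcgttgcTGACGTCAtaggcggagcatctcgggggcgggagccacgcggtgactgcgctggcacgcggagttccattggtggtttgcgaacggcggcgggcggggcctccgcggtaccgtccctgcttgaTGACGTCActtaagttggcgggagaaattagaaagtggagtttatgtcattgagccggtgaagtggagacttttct

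Gbp2b held 1 match to the response element core, read on the minus strand, 137 bases before the start. 4930590L14Rik held 2 matches to the TATA box, 172 (minus strand) and 80 bases (plus strand) before the start, and Zgrf1 held 2 matches to the cyclic AMP element, 149 and 26 bases before it. For 4930590L14Rik that start is the one of the RefSeq entry, which lies before the GENCODE start of 140951876 given above. No printed promoter held more than 1 kind of motif, and the marked matches do not overlap. Of 32851 promoters of the same 300 bases, 3.44% held the first motif, 13.6% the TATA box and 1.79% the cyclic AMP element. The motifs were chosen with the sequences in view, and a match is a description of the letters only. Entries were at hand for 7 of the 10 genes, and Scnm1, Mettl14 and AI504432 had no entry.

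Depth was 15530352 to 25602500 counts per library. The ribosomal RNA entry CT010467.1 exceeded 1000 CPM (counts scaled to library size, here the plain total) in 7 of the 8 libraries without Ch25h, the exception being Ch25h-/- Tau+ replicate 1, and in none of the Ch25h+/+ libraries. Ch25h had 0 counts in all 8 Ch25h-/- libraries and at least 5 in each Ch25h+/+ library. Markers of cortex summed to 869 to 1103 CPM and those of hippocampus to 121 to 278 CPM, with none of the 8 markers of either list at 0. Choroid plexus markers ranged from 16.3 to 2793 CPM within and across all 4 groups.

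Gbp2b and 4930590L14Rik were read in Tau+ libraries and next to not at all in Tau- libraries, in both Ch25h genotypes. Gbp2b had 0 counts in 7 of the 8 Tau- libraries and 1 count in Ch25h-/- Tau- replicate 3. In Ch25h+/+ Tau+ it stood at 2.28, 2.99, 3.16 and 3.03 CPM on TMM-scaled library sizes, the scale of all CPM values from here on. In Ch25h-/- Tau+ it stood at 1.06, 2.21, 2.10 and 2.19 CPM. All 8 Tau+ libraries lay above all 8 Tau- libraries, and the lowest Tau+ library, replicate 1 of Ch25h-/-, still had 27 counts. Against a floor of 3 counts per library, the level in Tau+ was at least 17.5-fold higher in Ch25h+/+ and at least 10.4-fold higher in Ch25h-/-. These and all tau differences of the 10 genes are descriptions with no test, since such differences chose the genes.

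4930590L14Rik had 0 counts in all 8 Tau- libraries. It stood at 0.678, 0.673, 1.12 and 0.700 CPM in Ch25h+/+ Tau+ and at 1.29, 1.17, 1.25 and 1.06 CPM in Ch25h-/- Tau+, from 11 to 33 counts per library. By the same floor, the level in Tau+ was at least 4.82-fold higher in Ch25h+/+ and at least 6.60-fold higher in Ch25h-/-. The nearest tested genes on its sides, Gm2451 and Gm15688, had log2 tau differences of 0.21 (SE 0.27) and -0.09 (SE 0.24) averaged over the genotypes. Of all 54532 entries, 3 had at most 1 count in each Tau- library and at least 3 counts in each Tau+ library, and these 2 genes were among them. The remaining one was Lamr1-ps1, a processed pseudogene at chr2:131904086-131904959, which starts just before Prnp, the prion protein gene, at 131909928. No entry was read in Tau- libraries alone by the same rule.

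**Figure D1:**
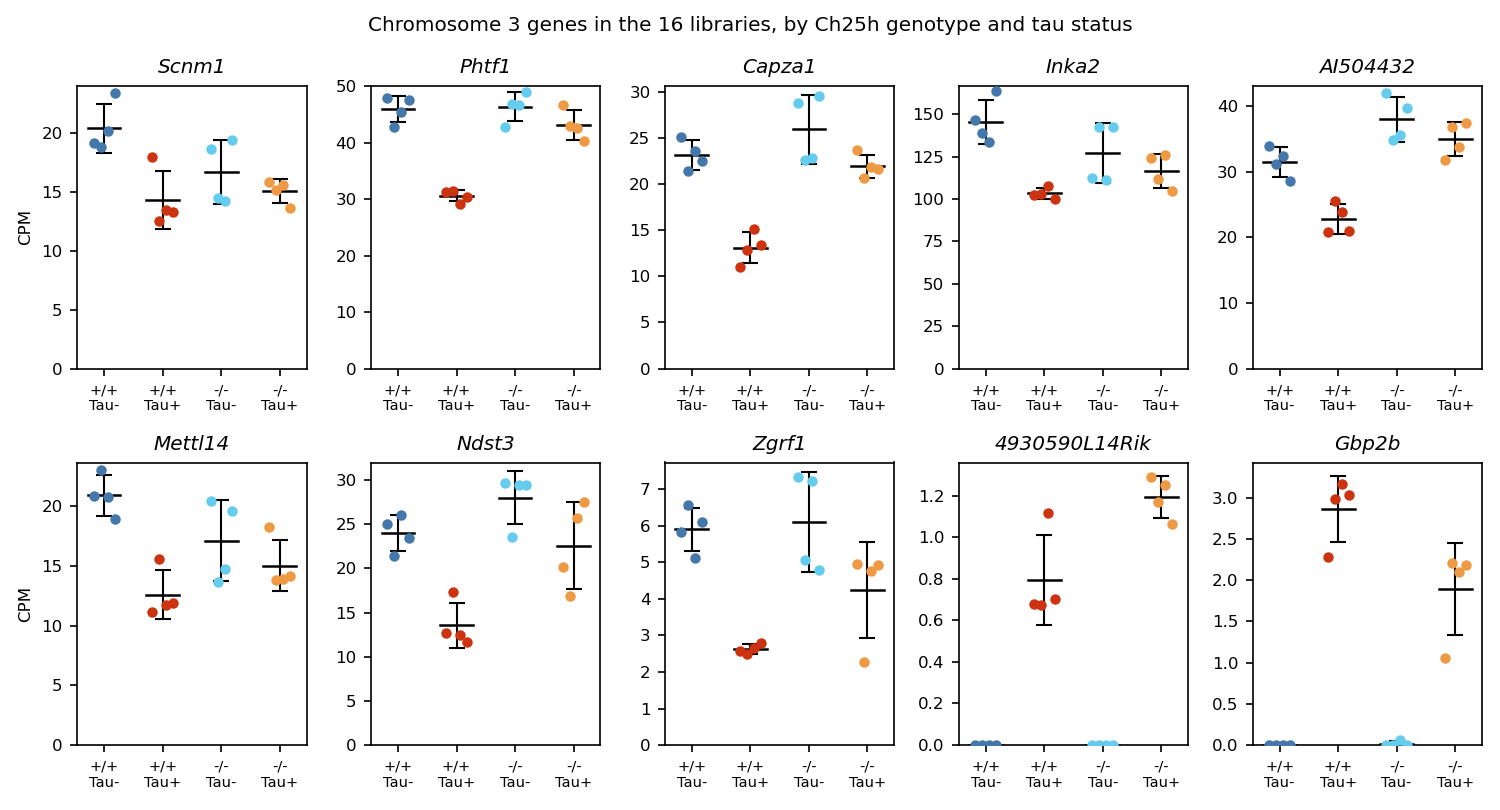
CPM of each of the 10 genes (vertical axes, each from 0) in the 4 groups of 4 libraries, with points for libraries, a long line for the mean and bars for 1 SD. Gbp2b and 4930590L14Rik sit at or near 0 in Tau- and above 0.67 CPM in every Tau+ library, and the other 8 genes are lowest in Ch25h+/+ Tau+.

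On average, the other 8 genes were lower in Tau+ than in Tau- in each genotype, with a larger log2 difference in Ch25h+/+. There the Tau+ and Tau- libraries of each gene did not overlap. In Ch25h-/- the libraries of each gene overlapped, and 0 members were lower past the threshold. In the interaction, the difference between the tau differences of the genotypes, 0 members passed by edgeR. Capza1 is taken here without the pseudogene Gm3608, which is described below. In CPM per kilobase of exon in Ch25h+/+ Tau-, Inka2 was highest at 30.4 ± 2.74 (SD, n = 4), followed by Scnm1 at 9.42 ± 0.970, Phtf1 at 6.30 ± 0.325, Capza1 at 6.13 ± 0.420 and AI504432 at 5.67 ± 0.409. Mettl14 at 2.82 ± 0.228, Ndst3 at 2.43 ± 0.206 and Zgrf1 at 0.559 ± 0.0566 came last. Phtf1, Capza1 and AI504432 overlapped their neighbours in that order, and so did Mettl14 and Ndst3. Gbp2b reached 1.02 ± 0.141 CPM per kilobase in Ch25h+/+ Tau+ and 4930590L14Rik 0.947 ± 0.259, on average above Zgrf1 and below Ndst3 in those libraries.

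Mettl14, the RNA methylation subunit, stood at 20.9, 23.0, 20.8 and 18.9 CPM in Ch25h+/+ Tau- and at 11.1, 15.6, 11.7 and 11.9 CPM in Ch25h+/+ Tau+. The groups did not overlap, and replicate 2 was the highest of the Tau+ libraries. The log2 fold difference was -0.73 (SE 0.14). In Ch25h-/- the Tau- libraries stood at 20.4, 13.6, 14.8 and 19.6 CPM and the Tau+ libraries at 18.2, 13.8, 13.9 and 14.1 CPM. Replicate 2 of Tau- was the lowest of the 8 libraries there and replicate 3 lay inside the Tau+ range, while replicate 1 of Tau+ lay nearer to replicates 1 and 4 of Tau-, with a log2 fold difference of -0.18 (SE 0.14) between the groups.

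Scnm1, the splicing factor, stood at 19.2, 18.8, 20.2 and 23.4 CPM in Ch25h+/+ Tau- and at 17.99, 12.5, 13.5 and 13.3 CPM in Ch25h+/+ Tau+. Replicate 1 of Tau+ came within 1 CPM of the lowest Tau- library, and the log2 fold difference was -0.52 (SE 0.13). Without Ch25h it stood at 18.6, 14.5, 14.2 and 19.4 CPM in Tau- and at 15.9, 15.1, 15.6 and 13.6 CPM in Tau+. As for Mettl14, replicates 1 and 4 of Ch25h-/- Tau- were the high ones. For Scnm1, replicates 2 and 3 lay inside the Tau+ range, and the log2 fold difference was -0.15 (SE 0.13). Scnm1 was the member nearest to the threshold in Ch25h+/+ and the one that missed it in the mean over both genotypes.

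Capza1, the actin capping subunit, stood at 25.1, 21.4, 23.6 and 22.5 CPM in Ch25h+/+ Tau- and at 11.03, 12.8, 15.1 and 13.4 CPM in Ch25h+/+ Tau+. The log2 fold difference was -0.82 (SE 0.11), and the groups did not overlap. In Ch25h-/- the Tau- libraries stood at 28.9, 22.6, 22.8 and 29.6 CPM and the Tau+ libraries at 23.7, 20.7, 21.8 and 21.6 CPM, with a log2 fold difference of -0.24 (SE 0.11). Replicates 1 and 4 of Ch25h-/- Tau- were again the high ones.

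The count of Capza1 is uncertain, because much of its sequence exists elsewhere. Of the 3144 words of 50 bases in its longest transcript, 77.4% occur in transcripts of other genes, most of them in Gm3608, a pseudogene at chr1:105455971-105458829. Gm3608 stood at 3.74, 2.30, 3.11 and 2.62 CPM in Ch25h+/+ Tau- and at 12.6, 14.9, 11.99 and 14.1 CPM in Ch25h+/+ Tau+, a log2 fold difference of 2.18 (SE 0.38). In Ch25h-/- it stood at 3.49, 10.8, 9.94 and 2.90 CPM in Tau- and at 3.72, 11.6, 9.60 and 12.7 CPM in Tau+. Gm3608 was high in the libraries in which Capza1 was low within each genotype, so that replicates 2 and 3 of Ch25h-/- Tau- went with the Tau+ libraries and replicate 1 of Ch25h-/- Tau+ with the Tau- libraries.

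Capza1 and Gm3608 together came to nearly the same level in Tau- and Tau+. Their sum was 26.1 ± 2.22 CPM (SD, n = 4) in Ch25h+/+ Tau- and 26.5 ± 1.92 CPM in Ch25h+/+ Tau+, a ratio of 1.01. In Ch25h-/- the sum was 32.8 ± 0.477 CPM in Tau- and 31.3 ± 2.91 CPM in Tau+, a ratio of 0.957. The difference in Ch25h+/+ was smaller than the SD of either group, and that in Ch25h-/- was larger than the SD of Tau- and smaller than that of Tau+. The share of Gm3608 in the sum ranged from 9.68% to 13.0% in wild-type Tau- libraries and from 44.3% to 53.7% in wild-type Tau+ libraries. In the 8 Ch25h-/- libraries it was either 8.93% to 13.6% or 30.3% to 37.1%, the lower range in Tau- replicates 1 and 4 and Tau+ replicate 1. Capza1 also shares 166 exon bases with St7l on the opposite strand, whose own log2 tau difference in Ch25h+/+ was -0.07 (SE 0.08). Gm3608 and its sum with Capza1 were looked at after the values were seen. How reads that fit both genes were assigned is not given in the sources used here.

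**Figure D2:**
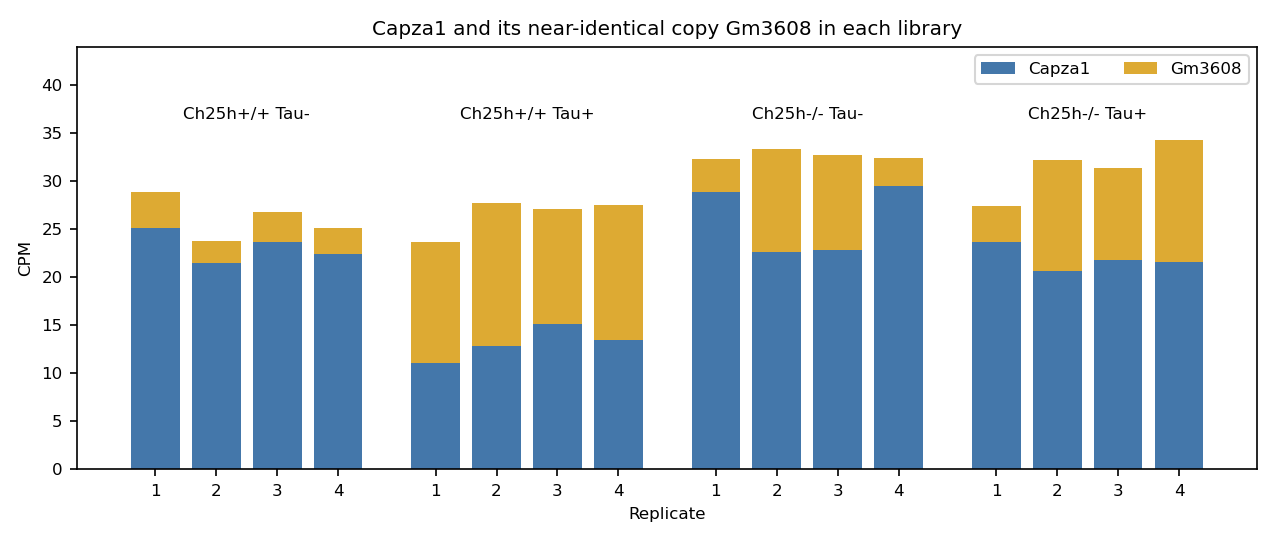
CPM of Capza1 (blue) and of the pseudogene Gm3608 (yellow), stacked from 0, in each of the 16 libraries. The height of the stack is 26.1 and 26.5 CPM on average in the 2 Ch25h+/+ groups, while the yellow part grows from 2.94 to 13.4 CPM, and 3 of the 8 Ch25h-/- libraries have the small yellow part.

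Phtf1, the membrane protein, varied little within groups, with a CV of 3.36% to 6.14%. It stood at 48.0, 42.9, 45.4 and 47.7 CPM in Ch25h+/+ Tau- and at 31.4, 31.5, 29.2 and 30.5 CPM in Ch25h+/+ Tau+, and the groups did not overlap. The log2 fold difference was -0.59 (SE 0.07). Without Ch25h it stood at 42.9, 46.8, 46.6 and 49.1 CPM in Tau- and at 46.7, 42.9, 42.6 and 40.3 CPM in Tau+, where the groups overlapped and the log2 fold difference was -0.10 (SE 0.07). It shares 448 exon bases with the antisense gene Phtf1os, which had 306 counts over all libraries against 12770 for Phtf1.

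Inka2, the Pak4 inhibitor, stood at 146, 139, 133 and 164 CPM in Ch25h+/+ Tau- and at 103, 103, 108 and 100.01 CPM in Ch25h+/+ Tau+. In Ch25h-/- it stood at 113, 142.7, 111 and 142.6 CPM in Tau- and at 124, 112, 126 and 105 CPM in Tau+. The groups were apart in Ch25h+/+ and overlapped in Ch25h-/-, with log2 fold differences of -0.49 (SE 0.09) and -0.12 (SE 0.09). Among the 8 genes, Inka2 had the smallest CV in Ch25h+/+ Tau+, at 3.09%. Its high libraries in Ch25h-/- Tau- were replicates 2 and 4, not the 1 and 4 of Mettl14, Scnm1 and Capza1.

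AI504432, the noncoding RNA, stood at 34.0, 31.3, 32.4 and 28.6 CPM in Ch25h+/+ Tau- and at 20.8, 25.6, 23.9 and 21.01 CPM in Ch25h+/+ Tau+, with a log2 fold difference of -0.47 (SE 0.09). Without Ch25h it stood at 42.0, 34.8, 35.6 and 39.8 CPM in Tau- and at 31.9, 36.9, 33.9 and 37.5 CPM in Tau+, with a log2 fold difference of -0.12 (SE 0.09). Every Ch25h-/- library but Tau+ replicates 1 and 3 lay above the whole Ch25h+/+ range.

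Ndst3, the heparan sulfate enzyme, stood at 25.0, 21.4, 26.1 and 23.4 CPM in Ch25h+/+ Tau- and at 12.7, 17.3, 12.5 and 11.7 CPM in Ch25h+/+ Tau+, with a log2 fold difference of -0.82 (SE 0.15). In Ch25h-/- it stood at 29.7, 23.6, 29.4 and 29.4 CPM in Tau- and at 20.2, 16.9, 25.7 and 27.5 CPM in Tau+, with a log2 fold difference of -0.31 (SE 0.15). Replicate 2 was the lowest library of both Ch25h-/- groups. Sec24d, which encodes a subunit of the vesicle coat COPII and is the nearest tested gene before Mettl14, was likewise lowest in replicate 2 of both groups, at 9.12 and 7.41 CPM where the other 6 libraries stood at 11.46 to 15.8 CPM.

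Zgrf1, the helicase, had the largest fold difference of the 8. It stood at 5.82, 6.56, 5.13 and 6.10 CPM in Ch25h+/+ Tau- and at 2.59, 2.48, 2.65 and 2.80 CPM in Ch25h+/+ Tau+, with a log2 fold difference of -1.16 (SE 0.21). Without Ch25h it stood at 7.35, 5.06, 7.23 and 4.80 CPM in Tau- and at 4.97, 2.27, 4.77 and 4.93 CPM in Tau+. Only replicate 2 of Ch25h-/- Tau+ fell to the level of Ch25h+/+ Tau+, and the log2 fold difference of -0.52 (SE 0.21) in Ch25h-/- became -0.32 without that library. In Ch25h-/-, leaving out 1 library also moved 5 of the other 7 lower genes by over 1.5 times, all but Phtf1 and Capza1. Ndst3 came to -0.20 without replicate 2 of Tau+. Mettl14 came to -0.30 without replicate 1 of Tau+, and to -0.09, -0.28 and -0.11 without replicates 1, 2 and 4 of Tau-. Scnm1 came to -0.09 and -0.07 without replicates 1 and 4 of Tau-. Inka2 came to -0.07 without replicate 2 or 4 of Tau- and to -0.08 without replicate 4 of Tau+. AI504432 came to -0.07 without replicate 1 of Tau- and to -0.08 without replicate 1 of Tau+. Counts of Zgrf1 were 35 to 127 per library, the lowest of the 8 genes.

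Set against each genotype's own Tau- mean, the median of the 8 genes was 59.7% to 69.6% in the 4 Ch25h+/+ Tau+ libraries and 82.8% to 93.1% in the 4 Ch25h-/- Tau+ libraries. In the Ch25h-/- Tau- libraries that median was 111% and 109% in replicates 1 and 4 and 87.1% and 90.7% in replicates 2 and 3. The 2 lower Tau- libraries therefore lay within the range of the Tau+ libraries of the same genotype. All 8 genes were lower without overlap in Ch25h+/+, beside 1.97% of the genes tested that were lower in Tau+ without overlap there and 3.89% that were higher, and none of the 8 did in Ch25h-/-, beside 0.992% lower and 1.14% higher. Microglia markers, 7 of 7 detected, summed to 294 to 316 CPM in wild-type Tau- libraries and 448 to 565 CPM in wild-type Tau+ libraries. Without Ch25h they summed to 291 to 326 CPM (Tau-) and 285 to 355 CPM (Tau+). They were thus highest in the group in which the 8 genes were lowest. Mean sums of astrocyte, oligodendrocyte and endothelial markers were also highest there, at 5039 ± 1037, 3862 ± 1053 and 219 ± 20.6 CPM (SD, n = 4). In the other groups these means were 3757 to 4334, 2781 to 3252 and 187 to 201 CPM. Neuron markers were lowest in Ch25h+/+ Tau+, at 6237 ± 298 CPM against means of 6282 to 6483 CPM. The part of any of these markers in the differences was not tested. In bulk tissue, fewer cells of a type and less RNA per cell cannot be told apart.

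**Figure D3:**
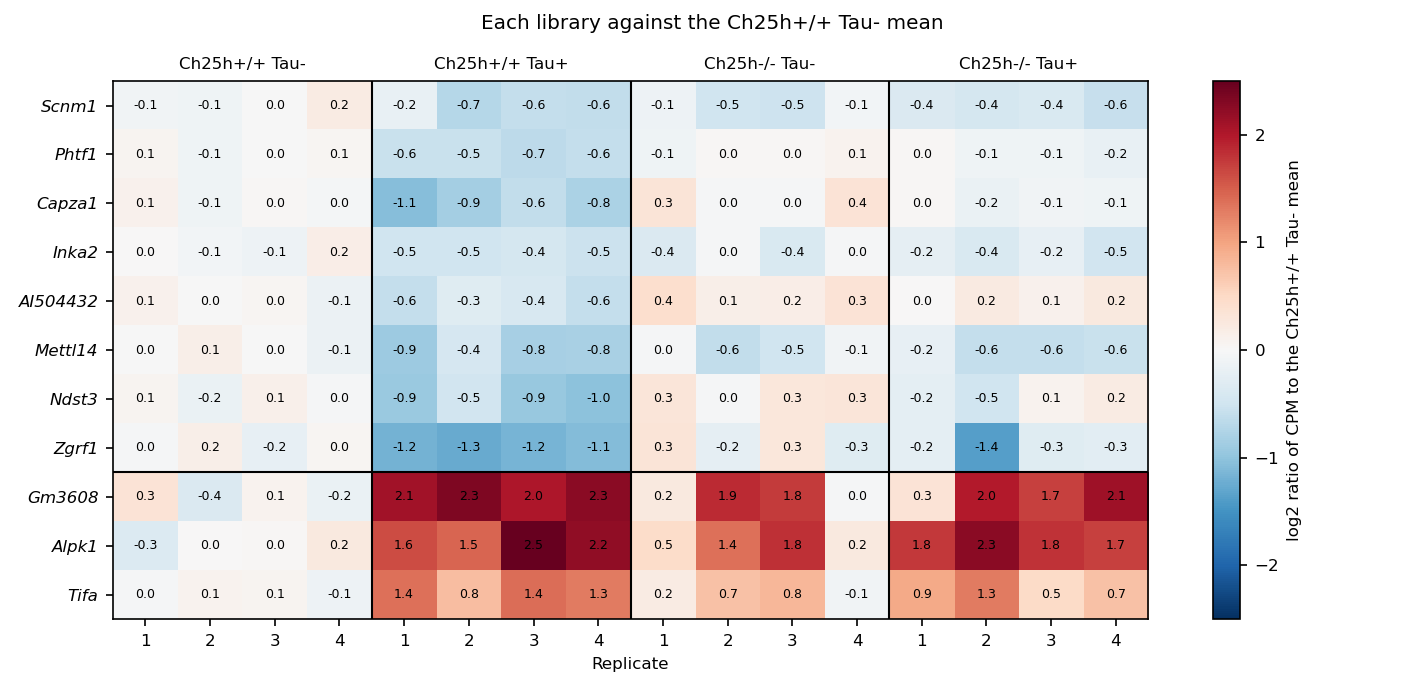
Log2 ratio of each library's CPM to the mean of the Ch25h+/+ Tau- libraries, for the 8 lower genes in chromosome order and, below the line, for Gm3608, Alpk1 and Tifa, blue for lower and red for higher. The Ch25h+/+ Tau+ columns are blue for all 8 genes. In Ch25h-/- Tau- the columns of replicates 2 and 3 differ from those of 1 and 4 for Scnm1, Capza1, AI504432, Mettl14, Gm3608, Alpk1 and Tifa.

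At an adjusted p of at most 0.05 (edgeR's quasi-likelihood test, Benjamini-Hochberg over all genes tested), 0.0902% of the genes tested were lower in Tau+ in Ch25h+/+ and 1.47% were higher. All 10 members were past that threshold, 8 lower and 2 higher, which is what the choice asked of them. Averaged over the genotypes, 9 members passed beside 0.857% of all genes, 7 lower beside 0.0846% and 2 higher beside 0.772%. In Ch25h-/- alone, where 0.0395% of all genes passed, the 2 genes read in Tau+ were higher beside 0.0282% and 0 members lower beside 0.0113%. Nothing is read from these counts. Every log2 tau difference of the 8 genes was below 0 in both genotypes and under every alternative run. Genes chosen on a tau difference and refitted on nearly the same libraries are apt to keep their sign. Nothing is read from the common sign either.

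Of the 362 other genes tested in the stretch, 13 were past the threshold for tau in Ch25h+/+, 12 higher and 1 lower, a share of 3.59% beside the 1.56% of all genes. Averaged over the genotypes there were 6, a share of 1.66%, and in Ch25h-/- there were 0, beside 7 genes past the threshold in all. The median log2 tau difference of the other genes was 0.00 in Ch25h+/+, beside -0.01 over all genes. The 6 were Ctss, Csf1, Alpk1, Tifa and Gbp7, which were higher in Tau+, and Fam241a, which was lower. Ctss (cathepsin S, a microglial protease) and Csf1 (a growth factor of microglia) stood at 103 ± 14.6 and 38.1 ± 5.61 CPM in Ch25h+/+ Tau+ (SD, n = 4) and between 42.5 and 50.05 and between 23.2 and 24.5 CPM on average in the other 3 groups.

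Alpk1, Tifa and Fam241a start between 127.7 and 127.9 Mb, beyond Neurog2, the tested gene next after Zgrf1 at 127.6 Mb. Alpk1 is a kinase that senses a bacterial sugar and Tifa is the adaptor it phosphorylates. Alpk1 stood at 3.56, 4.54, 4.57 and 5.29 CPM in Ch25h+/+ Tau- and at 13.9, 12.3, 25.9 and 20.9 CPM in Ch25h+/+ Tau+. In Ch25h-/- it stood at 6.14, 11.6, 16.03 and 5.30 CPM in Tau- and at 15.4, 21.4, 15.7 and 14.7 CPM in Tau+. Replicates 2 and 3 of Ch25h-/- Tau- were the high Tau- libraries, the same ones that were low for Mettl14 and Scnm1 and high for Gm3608.

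Tifa followed the same libraries, at 6.93, 9.88, 10.7 and 5.63 CPM in Ch25h-/- Tau- and 11.54, 14.7, 8.35 and 9.93 CPM in Ch25h-/- Tau+, against 5.98 ± 0.413 and 14.1 ± 2.58 CPM (SD, n = 4) in Ch25h+/+ Tau- and Tau+. The log2 tau differences averaged over the genotypes were 1.40 (SE 0.21) for Alpk1 and 0.83 (SE 0.14) for Tifa. Fam241a had a log2 difference of -0.74 (SE 0.17), of like size in Ch25h+/+ at -0.73 and in Ch25h-/- at -0.75. Replicate 1 of Ch25h-/- Tau+, whose Mettl14 and Gm3608 levels lay nearer to those of Tau- replicates 1 and 4 than to those of the other Tau+ libraries, had an Alpk1 level of 15.4 CPM, inside the range of the other Tau+ libraries.

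**Figure D4:**
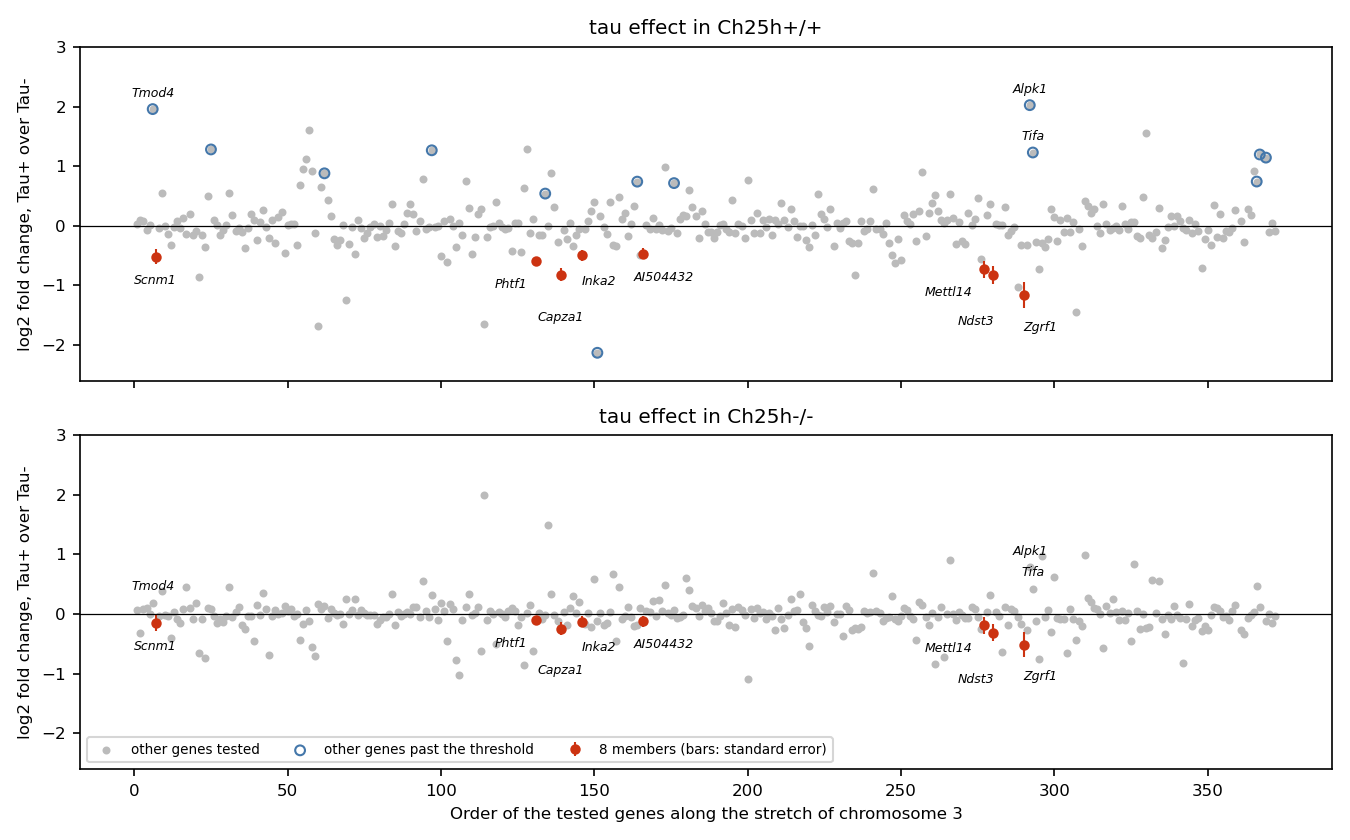
Log2 fold change of Tau+ over Tau- (vertical axis) for 370 genes tested from 95 Mb to the Gbp genes in their order along chromosome 3 (horizontal axis), in Ch25h+/+ above and Ch25h-/- below, without Gbp2b and 4930590L14Rik. The 8 genes (red, bars for the standard error) lie between -0.47 and -1.16 above and between -0.10 and -0.52 below, and 13 other genes are ringed as past the threshold above and none below.

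Of the 20 nearest tested genes on either side of the members, 3 were past the threshold for tau in Ch25h+/+, all higher in Tau+: Tmod4, Gbp2 and Gbp3. Tmod4, a tropomodulin gene whose end lies just before Scnm1, was higher in Ch25h+/+ Tau+ by 1.96 on the log2 scale (SE 0.37), at 0.821 ± 0.112 CPM (SD, n = 4) against 0.209 ± 0.0640 CPM. It stood at 0.691 ± 0.145 and 0.799 ± 0.320 CPM in Ch25h-/- Tau- and Tau+, so that only the Ch25h+/+ Tau- group was low. Lysmd1, on the other side of Scnm1, had a log2 difference of -0.03 (SE 0.14) in Ch25h+/+. Sec24d and Larp7, beside Mettl14 and Zgrf1, had log2 differences of -0.56 (SE 0.19) and -0.33 (SE 0.12). The neighbours that did not pass lay between the -0.56 of Sec24d and the 0.37 of Snhg8 in Ch25h+/+.

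Gbp2b has 4 guanylate-binding protein genes beside it. Of these, 3, Gbp2, Gbp3 and Gbp7, were higher in Tau+ past the threshold in Ch25h+/+, while 0 of the 4 passed in Ch25h-/-. Gbp5 was also higher in Ch25h+/+ Tau+, by 0.93 (SE 0.24, adjusted p = 0.0556 by edgeR) on the log2 scale, and by 0.03 (SE 0.24) in Ch25h-/-. For Gbp5 the difference between the genotypes was -0.89 (SE 0.34, adjusted p = 0.879 by edgeR's interaction test). Gbp2 stood at 3.30 ± 1.14 CPM (SD, n = 4) in Ch25h+/+ Tau- and 7.33 ± 0.749 CPM in Ch25h+/+ Tau+, and at 3.58 ± 0.724 and 3.31 ± 0.240 CPM in Ch25h-/- Tau- and Tau+. Gbp7 had log2 tau differences of 0.74 (SE 0.18) in Ch25h+/+ and 0.47 (SE 0.18) in Ch25h-/-, and it was past the threshold averaged over the genotypes. The difference between the genotypes did not pass for Gbp2 (-1.26, SE 0.30, adjusted p = 0.188), Gbp3 (-1.07, SE 0.33, adjusted p = 0.492) or Gbp7 (-0.28, SE 0.26, adjusted p = 1), by edgeR's interaction test. Gbp2b differed from Gbp2 in that it was read in Tau+ of both genotypes and, but for 1 count, in neither Tau- group. Markers of microglia, astrocytes, oligodendrocytes and endothelium likewise had their highest mean in Ch25h+/+ Tau+, and their part was not tested. Of 29 interferon-stimulated genes tested, 20 were higher in Ch25h+/+ Tau+ and 0 in Ch25h-/- Tau+, beside 1.47% and 0.0282% of all genes, with median log2 differences of 1.44 and 0.45, beside medians over all genes of -0.01 and 0.01. Averaged over the genotypes, 14 of the 29 were higher, beside 0.772% of all genes. These counts of calls are not a test that the genotypes differ. Within Tau+, Gbp2b stood lower in Ch25h-/- than in Ch25h+/+ by -0.62 on the log2 scale (SE 0.29) and 4930590L14Rik higher by 0.59 (SE 0.32), neither past the threshold. Gbp2b came to -0.41 without replicate 1 of Ch25h-/- Tau+ and to -1.44 (SE 0.44) with the ribosomal RNA class of the library as a covariate. Gbp2b shares 1.8% of its 50-base words with Gbp2.

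Lists of pathway partners were set up for 6 of the members, Mettl14, Capza1, Ndst3, Scnm1, Zgrf1 and Inka2. Over these 6 lists, 0 of the 85 tested genes passed the threshold for tau in Ch25h+/+, in Ch25h-/- or on average, by edgeR or by DESeq2. At an unadjusted p under 0.05 there were 5, 1 and 3 genes, beside 9.4%, 3.7% and 9.9% of all genes. The median log2 tau difference in Ch25h+/+ was -0.04 for the 16 genes of the RNA methylation machinery, 0.02 for 19 genes of actin capping, 0.00 for 19 genes of heparan sulfate synthesis, -0.06 for 12 minor spliceosome genes, 0.07 for 13 crosslink repair genes and -0.03 for 6 genes of the Pak4 group.

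Loss of Ch25h, averaged over tau status, is also given as a description with no test, because it uses the Ch25h+/+ Tau+ libraries whose values chose the genes. Past the threshold were 4 of the 10 members, Capza1, AI504432, Ndst3 and Phtf1, all higher in Ch25h-/-, beside 20.3% of all genes in either direction, 9.55% higher and 10.8% lower. The log2 differences were 0.48 (SE 0.10) for Ndst3, 0.45 (SE 0.08) for Capza1, 0.44 (SE 0.07) for AI504432 and 0.25 (SE 0.05) for Phtf1. Zgrf1 stood at 0.37 (SE 0.15), Scnm1 at -0.10 (SE 0.09), Mettl14 at -0.02 (SE 0.10) and Inka2 at -0.01 (SE 0.07). Scnm1 came to -0.05 without Ch25h+/+ Tau+ replicate 1 and to -0.07 without Ch25h+/+ Tau- replicate 4, while Mettl14 and Inka2 took either sign as single libraries were left out. With the ribosomal RNA class of the library as a covariate, 0 members and 0 genes in all passed, with 511 genes at an unadjusted p under 0.05. With this covariate the log2 differences of the 4 genes were 0.58 (SE 0.17) for Capza1, 0.39 (SE 0.10) for Phtf1, 0.29 (SE 0.23) for Ndst3 and 0.29 (SE 0.14) for AI504432, each with a larger standard error than without it. Those of the others were 0.64 (SE 0.32) for Zgrf1, 0.32 (SE 0.21) for Mettl14, 0.10 (SE 0.15) for Inka2 and -0.02 (SE 0.21) for Scnm1. Class and genotype differ in only 1 of the 16 libraries, so that the 2 can hardly be told apart. Gbp2b and 4930590L14Rik have no value here, since a fold over Tau- libraries at 0 cannot be given.

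The fitted differences of these 4 genes were larger within Tau+ than within Tau-, with Capza1 counted without Gm3608. The sum of Capza1 and Gm3608 was 31.3 ± 2.91 CPM (SD, n = 4) in Ch25h-/- Tau+ and 26.5 ± 1.92 CPM in Ch25h+/+ Tau+. Within Tau- it was 32.8 ± 0.477 and 26.1 ± 2.22 CPM, so that for the sum the difference was not larger within Tau+. All 4 genes passed within Tau+, beside 3.55% of all genes (1.14% higher and 2.4% lower). The log2 differences were 0.74 (SE 0.11) for Capza1, 0.73 (SE 0.15) for Ndst3, 0.61 (SE 0.09) for AI504432 and 0.49 (SE 0.07) for Phtf1. With the class as a covariate they came to 0.85 (SE 0.16), 0.57 (SE 0.22), 0.48 (SE 0.14) and 0.61 (SE 0.10), and 1 member passed, beside 10 genes in all. Within Tau- the log2 differences of these genes were 0.16 for Capza1, 0.22 for Ndst3, 0.27 for AI504432 and 0.01 for Phtf1. Without Ch25h-/- Tau- replicate 4 Capza1 came to 0.10, and with the ribosomal RNA class as a covariate the 4 values came to 0.31 for Capza1 (SE 0.21), 0.01 for Ndst3 (SE 0.28), 0.09 for AI504432 (SE 0.17) and 0.17 for Phtf1 (SE 0.13). Phtf1, near 0 within Tau-, ranged from -0.02 to 0.05 when 1 library was left out. The remaining lower genes stood within Tau- at -0.29 (SE 0.13) for Scnm1, -0.29 (SE 0.14) for Mettl14, -0.19 (SE 0.09) for Inka2 and 0.05 (SE 0.20) for Zgrf1. Within Tau+ the same genes stood at 0.08 (SE 0.13), 0.26 (SE 0.14), 0.18 (SE 0.09) and 0.70 (SE 0.22). Within Tau- 0 members passed by edgeR or DESeq2, beside 1.03% of all genes by edgeR, 0.214% higher and 0.812% lower. At an unadjusted p under 0.05 there were 2 of the 10 members, Scnm1 and AI504432, beside 3700 of the 17736 genes tested, a share near the background. In the interaction 0 members passed by edgeR, beside 0.0338% of all genes, and 7 of the 10 were at an unadjusted p under 0.05, beside 733 of the 17736 genes tested. DESeq2 called Phtf1 among 55 genes in all. Without Ch25h, Phtf1, Capza1 and AI504432 were higher without overlap within Tau+, beside 4.5% of all genes, and Gbp2b was lower, beside 5.74%. Within Tau- AI504432 was higher without overlap, beside 7.64% of all genes, and 0 members were lower, beside 8.58%. These comparisons share libraries with the choice of the genes and are given as descriptions. The interaction differences of the 8 lower genes lay between 0.34 and 0.65 on the log2 scale with standard errors of 0.10 to 0.30.

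Across the 16 libraries, the genes whose log2(CPM + 0.5) was most like that of a member were found by Pearson's r among all genes tested. They are a description, since all points share the groups and the library classes. For Gbp2b the 3 nearest were Lamr1-ps1 (r = 0.977), Gm5900 (r = 0.953), a processed pseudogene on chromosome 7, and Prnp (r = 0.950), and the same 3 led for 4930590L14Rik at 0.967, 0.941 and 0.940. Prnp itself stood at 783 ± 41.7 and 1677 ± 182 CPM (SD, n = 4) in Ch25h+/+ Tau- and Tau+ and at 756 ± 53.8 and 1620 ± 175 CPM in Ch25h-/-. Phtf1 ran against Cd52 (r = -0.945), C1qb (r = -0.943) and C3ar1 (r = -0.938), Capza1 against Cyba (r = -0.931), Lag3 (r = -0.928) and Cd52 (r = -0.918), and Ndst3 against Trem2 (r = -0.936), Ly9 (r = -0.935) and Lap3 (r = -0.929).

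Zgrf1 ran against Ly86 (r = -0.912), Ifit3b (r = -0.910) and Gm4951 (r = -0.909), and AI504432 against Ctsa (r = -0.951), Tsc22d4 (r = -0.942) and Spi1 (r = -0.936). Inka2 ran against Gbp9 (r = -0.910) and Parp14 (r = -0.887) and with Gm14204 (r = 0.895). Mettl14 stood apart in that its nearest gene was Gm3608 (r = -0.913), followed by Mir8099-2 (r = -0.898) and Mpp2 (r = 0.889). Scnm1 ran against Tmem123 (r = -0.916) and 9930111J21Rik2 (r = -0.899) and with Rpl34 (r = 0.898), a ribosomal protein gene that starts at 130726831 on chromosome 3. Among the members themselves, Capza1 went with AI504432 (r = 0.906) and with Phtf1 (r = 0.905), while Scnm1 and AI504432 were the least alike of the 8 lower genes, at r = 0.230.

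Outside the stretch, Gpr149, an orphan receptor gene at 62.5 Mb of chromosome 3, was the 1 gene of all 17736 tested (0.00564%) that was lower in each Tau+ library than in any Tau- library. It stood at 0.341 to 0.700 CPM in Tau+ and at 0.725 to 1.60 CPM in Tau-. In the other direction there were 11 genes, 0.062% of those tested, Gbp2b and 4930590L14Rik among them. The 15 genes past the threshold and lower in Tau+ averaged over the genotypes included 7 of the members, which were chosen for their place on chromosome 3 and their tau difference, so that their number there is no result. Apart from the members, those on chromosome 3 were Fam241a and Gpr149. Gpr149 is named here after its values were seen.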

How the data were processed

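Bulk RNA of 16 libraries was analysed from 1 deposited table of raw read counts per gene, which the authors made from reads aligned with STAR 2.7 to GRCm38 (mm10), per the submitters' processing notes. The counting program, the annotation and the use of strand are not given in the sources used here. Of the table's rows, 98.5% were placed by symbol in GENCODE M21; 102 symbols occur more than once and 27 had turned into dates. Per the labels' protocols, total RNA was column-purified and made into mRNA libraries.

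Genes were filtered with filterByExpr, scaled by TMM and fitted over all 4 groups with edgeR 4.0.16 (quasi-likelihood, limma 3.58.1, R 4.3.3), with Benjamini-Hochberg adjustment over all genes tested and a threshold of 0.05. DESeq2 1.42.0 was an alternative, as were other size factors, no filter, a mean of at least 50 counts, the ribosomal RNA class (over or under 1000 CPM) as a covariate, the compared groups alone and each library left out. Tables were handled with Python 3.11.15 and pandas 2.3.3, and plots drawn with matplotlib 3.10.9. The fit was tested on simulated data. Floors are 3 counts per library and cover counting error only; likeness used a pseudocount of 0.5.

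The members and all lists (pathway partners, interferon genes, markers) were chosen with earlier results of these data known. The genes named are the members, the 3 genes most like each, the genes of the stretch past the threshold for tau on average, genes read in 1 tau status, the nearest tested neighbours, label checks and list members past the threshold. Gm3608 and Gpr149 were also singled out, after their values were seen.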

Additional observations from a re-analysis of the deposited data

Results flagged for a closer look

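In 6 of 36 groups of 4 libraries, 1 library stood apart from the other 3 by Dixon's criterion, and chance flags about 1 in 20 groups. Mettl14 was high in Ch25h+/+ Tau+ replicate 2, at 15.6 CPM against 11.1 to 11.9 CPM in the others, and in Ch25h-/- Tau+ replicate 1, at 18.2 CPM against 13.8 to 14.1 CPM. Ndst3 was low in Ch25h-/- Tau- replicate 2, at 23.6 CPM against 29.4 to 29.7 CPM. Zgrf1 was low in Ch25h-/- Tau+ replicate 2, at 2.27 CPM against 4.77 to 4.97 CPM. 4930590L14Rik was high in Ch25h+/+ Tau+ replicate 3, at 1.12 CPM against 0.673 to 0.700 CPM. Gbp2b was low in Ch25h-/- Tau+ replicate 1, at 1.06 CPM against 2.10 to 2.21 CPM; this library also lacks the high ribosomal RNA level of the other Ch25h-/- libraries.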

How the results depend on the processing

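No difference past the threshold changed direction under any alternative run; differences that did not pass, such as those of Phtf1, Zgrf1 and Mettl14 for Ch25h loss in Tau- and of Mettl14 and Inka2 averaged over tau status, changed sign in some. Without the filter, the genes past the threshold numbered 319 for tau on average (152 as reported), 28 for tau in Ch25h-/- (7), 522 for Ch25h loss in Tau- (182) and 57 for the interaction (6), with 13 other genes of the stretch (6) and 2 Gbp genes (1) for tau averaged over the genotypes. With a mean of at least 50 counts, tau in Ch25h-/- gave 2 genes, and 5 genes did not overlap between tau statuses (12). DESeq2 gave 292 genes for tau on average, 424 in Ch25h+/+ (277), 14 in Ch25h-/-, 1048 and 1501 for Ch25h loss in Tau- and in Tau+ (629), 55 for the interaction with 1 member (0), and, for tau averaged over the genotypes, 15 other genes of the stretch, 2 Gbp genes and 22 interferon genes (14 as reported for that average). With the library class as a covariate, Ch25h loss gave 0 genes and 0 members on average (3603 and 4), 0 genes in Tau-, 10 genes and 1 member in Tau+ and 3 for the interaction; in Tau+ the log2 differences of Capza1, Ndst3, AI504432 and Phtf1 were then 0.48 to 0.85, with larger standard errors. With the compared groups alone it gave 1101 genes in Tau- and 119 in Tau+. Beyond fewer genes or libraries tested, the cause was not tested.

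Leaving out 1 library gave 110 to 233 genes for tau on average, 159 to 294 in Ch25h+/+ and 6 to 13 in Ch25h-/-. Ch25h loss gave 2425 to 4220 genes and 4 to 5 members on average, 104 to 1685 genes and 3 to 5 members in Tau+, and 4 (without Ch25h+/+ Tau- replicate 1) to 1295 genes (without Ch25h+/+ Tau+ replicate 1) in Tau-. The interaction gave 0 to 25 genes, and for tau averaged over the genotypes the other genes of the stretch 4 to 8, the Gbp genes 0 to 2 and the interferon genes 11 to 16. The genes without overlap numbered 12 to 29 and those read in 1 tau status 3 to 4. No paired analysis was possible because the labels give no replicate numbers, which here follow accession order. Genes under about 1 CPM rest on few counts.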
